A study of Rattus norvegicus with 15 samples.

Results

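The comparison described here set lumbar spinal cord from rats treated with the preparation BZ against cord from untreated rats with the same nerve injury. It used the 3 CCI+BZ libraries and the 3 CCI libraries, 6 of the 15 libraries in the series, chosen by their titles and not by any measured value. All animals were adult male Sprague-Dawley rats, in 4 ligated groups and a sham group. CCI, chronic constriction injury, was made with loose ligatures around the left common sciatic nerve, and all ligated groups carried it. CCI rats received no drug that the labels name, and the labels give no vehicle. CCI+BZ rats received BZ at 3.6 g crude drug per kg for 5 days, from postoperative day 6 to day 10, and tissue was taken on day 10 from the L4-L6 cord on the injured side. Sham rats had the nerve exposed without ligatures. CCI+YZP and CCI+YH rats received the whole prescription at 10.8 and the YH preparation at 7.2 g crude drug per kg, so doses differed between treatments. Each ligated group held 7 rats, of which 3 were sequenced, and each library is taken as 1 rat. Of 34202 rows in each count table, 14978 reached 1 CPM (the count scaled to a library of 1e6 counts) in at least 3 of the 6 libraries and were tested.

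As background, sciatic ligation damages sensory axons that end in the dorsal horn of this cord segment, where neurons, microglia and astrocytes take part in the pain that follows. Yuan-Hu Zhi Tong Prescription is a traditional analgesic that pairs Corydalis rhizome, Yuan-Hu in Chinese, with Angelica dahurica root, Bai-Zhi, a plant known for its furanocoumarins. The labels give only the letters BZ. The question behind this group in the series is what 1 part of the prescription does without the other. The tissue is cord from the injured side with dorsal and ventral horn, so fewer cells of a type and less RNA per cell cannot be told apart. The tables list genes by identifier without symbols, so gene groups and cell type markers could not be examined and the tissue label was not checked against them.

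Total counts ranged from 17616561 to 22757104 in CCI and from 18027835 to 19910603 in CCI+BZ, and the number of rows with a count ranged from 19678 to 20008 over these 6 libraries. The 3 most abundant genes took 7.55%, 7.53% and 6.78% of the counts in the CCI libraries. They took 6.76%, 8.43% and 9.18% in CCI+BZ replicates 1, 2 and 3. Sham stood at 8.95% ± 0.578 (SD, n = 3). CCI+BZ replicate 1 was thus at the level of the CCI libraries and the other 2 treated libraries near sham. The CCI and CCI+BZ values overlapped, and an exact two-sided permutation test, which with 3 against 3 cannot go below 0.1, gave p = 0.4.

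The same library stood apart across genes. The root mean square difference in log2 CPM between CCI+BZ replicate 1 and the other treated libraries was 0.469 and 0.510, while replicates 2 and 3 differed from each other by 0.397. Against CCI replicates 1, 2 and 3, CCI+BZ replicate 1 differed by 0.398, 0.392 and 0.395. It therefore lay closer to each of the 3 untreated libraries than to either library of its own group. This also held for CCI+YZP replicate 2, at 0.406 to 0.419 from CCI against 0.451 and 0.460 within its group. CCI+YH replicate 3 did the same, at 0.400 to 0.402 from CCI against 0.415 and 0.460 within its group. Pairs of CCI libraries differed by 0.356 to 0.396, and CCI+BZ replicates 2 and 3 differed from CCI by 0.421 to 0.516.

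**Figure D1:**
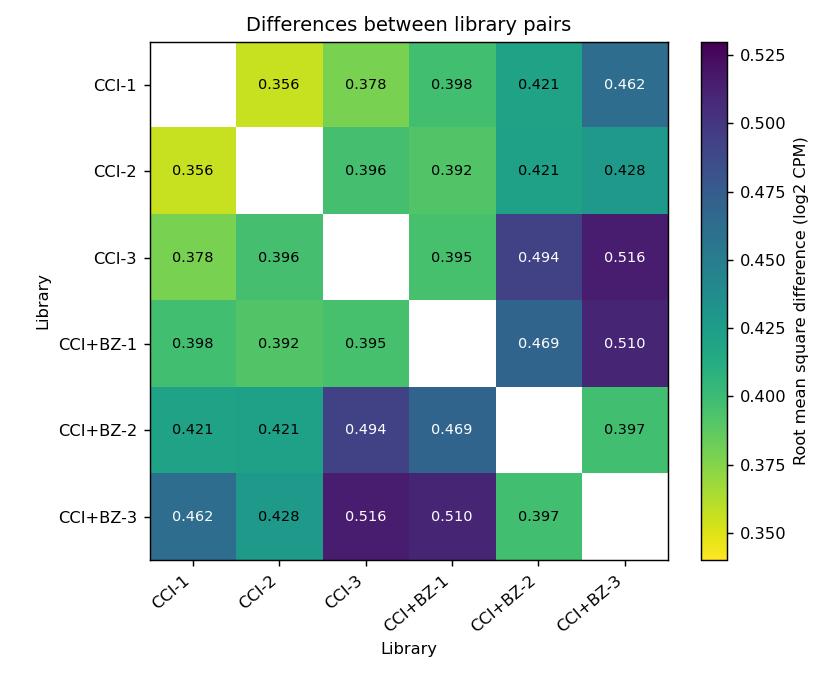
Root mean square difference in log2 CPM over 14978 genes for each pair of the 6 libraries, with both axes listing libraries and darker cells for larger differences. CCI+BZ-1 differs from the CCI libraries by 0.392 to 0.398 and from CCI+BZ-2 and CCI+BZ-3 by 0.469 and 0.510.

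In number of genes, CCI+BZ replicate 1 was at least 2-fold above both other treated libraries in 274 genes and at least 2-fold below both in 75. No other of the 15 libraries was set apart from its group in as many genes. The next was CCI+YZP replicate 2 with 216 in both directions together, against 349 for CCI+BZ replicate 1, and the CCI libraries ranged from 93 to 139. The filter used CCI and CCI+BZ libraries only. Genes high only in Sham, CCI+YZP or CCI+YH libraries are thus not counted, so the ranking is uneven for those groups. The per-gene SD of log2 CPM had a median of 0.134 in CCI+BZ and 0.105 in CCI, the lowest of the groups. It was 0.131 in CCI+YH, 0.119 in CCI+YZP and 0.118 in Sham, so CCI+YH was close to CCI+BZ.

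The 274 genes high in CCI+BZ replicate 1 were picked on CCI+BZ libraries alone, among genes that passed the filter on the 6 libraries. Levels in Sham, CCI+YZP and CCI+YH are thus separate measurements. CCI levels are not wholly so, since genes under 1 CPM in CCI+BZ replicates 2 and 3 passed only with CCI libraries reaching it. The order of the CCI+BZ libraries in these genes follows from the choice of genes. They were of modest abundance, with a median of 5.49 CPM over the 6 libraries. Relative to the mean of CCI+BZ replicates 2 and 3, their median log2 level was 1.60 in CCI+BZ replicate 1. It was 0.95, 0.78 and 1.46 in the CCI libraries and -0.11, -0.18 and 0.034 in the Sham libraries. All 3 CCI libraries thus lay above CCI+BZ replicates 2 and 3 in these genes and the Sham libraries did not, although picking genes low in replicates 2 and 3 lowers that reference.

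The other treated libraries were spread over the same scale. The medians over the 274 genes were 0.40, 1.10 and 0.49 in CCI+YZP and 1.02, 0.42 and 1.30 in CCI+YH. In CCI+YZP 1 library thus lay above the other 2, as in CCI+BZ, while in CCI+YH 1 library lay below the other 2. The doses differ between these groups. The 75 genes low in CCI+BZ replicate 1 showed no such order. Their medians ranged from -0.71 to -0.46 in the 12 libraries of the other groups, between CCI+BZ replicate 1 at -1.62 and replicates 2 and 3, an order of the CCI+BZ libraries that the choice of genes fixes. On the first principal component of all 15 libraries, which held 24.5% of the variance, CCI+BZ scored 23.2, -12.1 and -20.8. CCI scored 8.72 to 28.5 and Sham -26.0 to -19.4. The share of the 3 most abundant genes was low where this score was high in the CCI+BZ libraries, and its part in the separation was not tested.

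**Figure D2:**
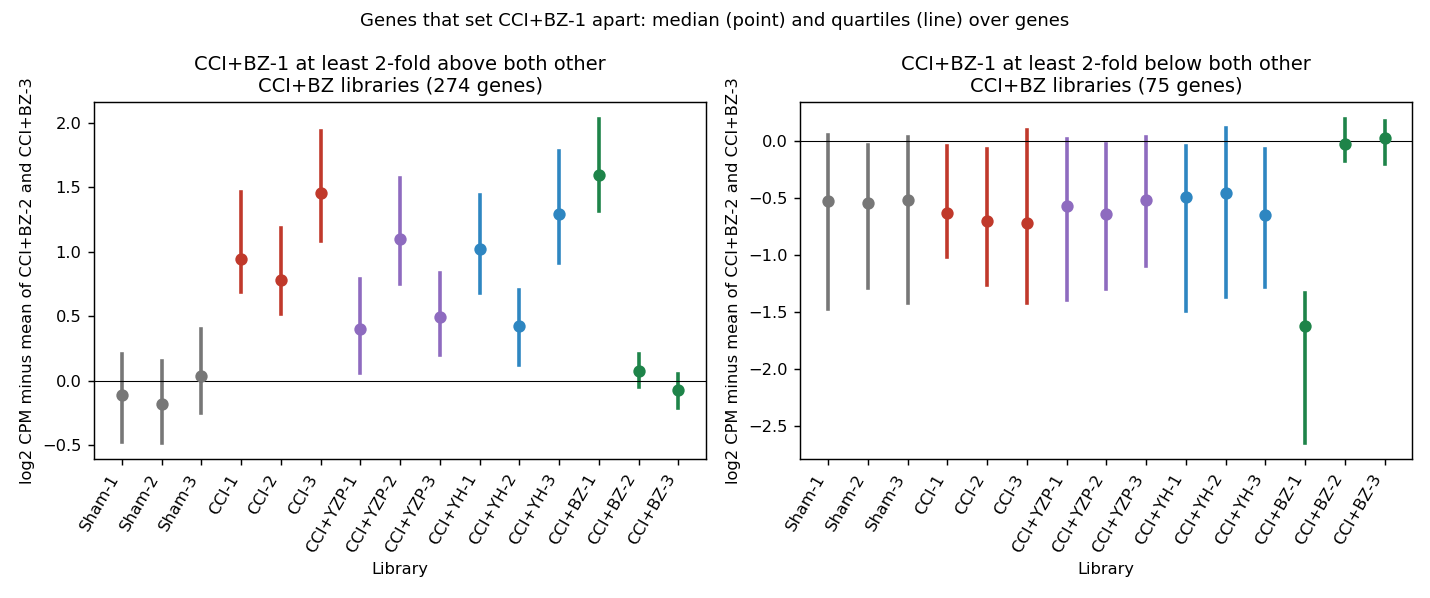
Median (point) and quartiles (line) of log2 CPM minus the mean of CCI+BZ-2 and CCI+BZ-3, per library, for the genes in which CCI+BZ-1 was at least 2-fold above (left, 274 genes) or below (right, 75 genes) both. On the left the CCI libraries sit at 0.78 to 1.46 and Sham at -0.18 to 0.034, and on the right the 12 libraries of the other groups sit between -0.71 and -0.46, with CCI+BZ-1 below them and CCI+BZ-2 and CCI+BZ-3 above, as the choice of genes fixes.

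Between CCI+BZ and CCI, 0 of 14978 genes passed an adjusted p of 0.05 in edgeR's quasi-likelihood test (0%), and the smallest adjusted p was 0.113. An unadjusted p under 0.05 was found for 1008 genes (6.73%), 550 higher (3.67%) and 458 lower (3.06%) in CCI+BZ, where 748.9 are expected with no effect. DESeq2 called 18 genes (0.12%), 5 higher and 13 lower in CCI+BZ, and gave no adjusted p for 2042 genes. In all 18 the 3 CCI+BZ libraries lay on 1 side of the 3 CCI libraries, as they did in 11.9% of all genes tested. The 18 were called on these same libraries, so this is a description. Their absolute log2 fold changes ranged from 0.25 to 2.67 with a median of 0.48. Limma voom with sample quality weights called 0 genes, with 1456 at an unadjusted p under 0.05.

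Differences were small for most genes. The quartiles of the log2 fold changes were -0.092 and 0.093, and 90% lay between -0.35 and 0.32. The 95% interval of the difference lay within 2-fold in either direction for 13637 genes (91.0%). A larger difference than that was therefore outside the interval for these genes, while for the remainder the precision did not allow the statement. A fitted log2 fold change of at least 1 was found for 52 genes higher and 88 lower in CCI+BZ, a count that includes genes with few counts in 1 group, whose fitted values depend on the prior count. Groups did not overlap in 1780 genes (11.9%), 937 higher (6.26%) and 843 lower (5.63%) in CCI+BZ.

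**Figure D3:**
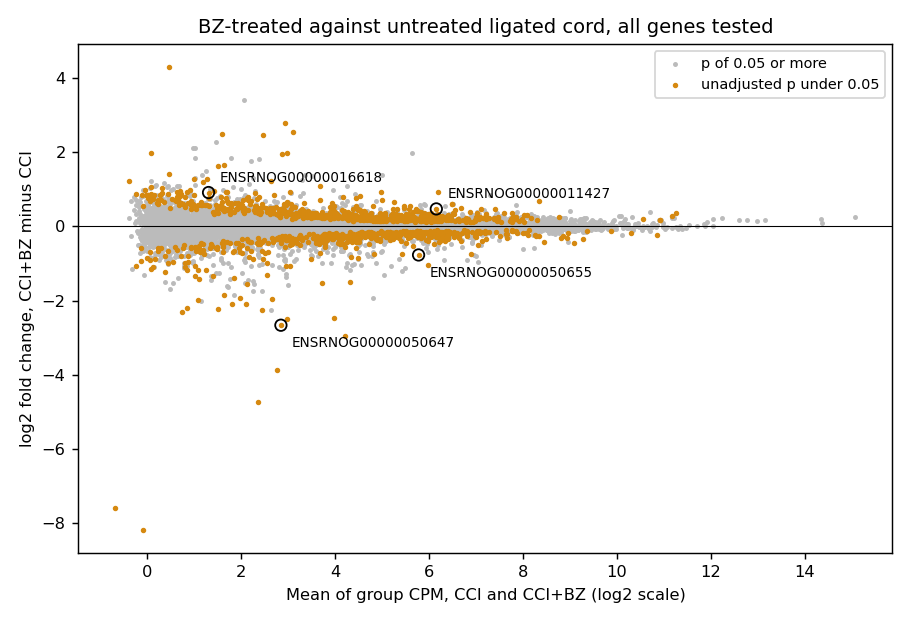
log2 fold change of CCI+BZ minus CCI against the mean of the 2 groups' CPM on a log2 scale, 1 point per gene tested, with orange points for an unadjusted p under 0.05 and circles for the 4 identifiers described in the text. Most points lie close to 0, with 90% between -0.35 and 0.32, and none of the points passed the adjusted threshold in edgeR.

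The 4 identifiers described next and 1 further locus carry the smallest p in each direction. They were chosen by this contrast, so their values are a description. ENSRNOG00000011427, higher in CCI+BZ, measured 55.1, 64.6 and 59.7 CPM in CCI and 78.3, 85.1 and 84.7 CPM in CCI+BZ. Every treated library, replicate 1 included, was above every untreated one. This is a log2 fold change of 0.47 with an SE of 0.0672 (adjusted p = 0.113 in edgeR). Sham measured 94.76, 87.01 and 95.03 CPM, so CCI+BZ lay between CCI and Sham without overlapping either. Libraries of the other treatments lay at 58.3 to 64.4 CPM, within the CCI range.

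ENSRNOG00000016618, a low-count gene, measured 1.97, 1.61 and 1.55 CPM in CCI and 3.32, 2.82 and 3.52 CPM in CCI+BZ. These rest on 28 to 45 counts per CCI library and 53 to 68 per CCI+BZ library. The groups did not overlap, the log2 fold change was 0.91 (SE 0.190, edgeR adjusted p = 0.406), and Sham measured 2.77, 3.52 and 3.14 CPM. CCI+BZ and Sham overlapped, and the 95% interval of their log2 difference ran from -0.36 to 0.43. CCI+YZP and CCI+YH libraries lay at 1.40 to 2.004 CPM, below every CCI+BZ library.

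ENSRNOG00000050655, lower in CCI+BZ, measured 79.3, 59.2 and 68.9 CPM in CCI and 39.8, 40.9 and 40.8 CPM in CCI+BZ. The treated libraries were within 1.1 CPM of each other while the CCI libraries spread over 20.1 CPM. The log2 fold change was -0.77 (SE 0.119, edgeR adjusted p = 0.119). Sham measured 46.6, 53.4 and 51.3 CPM and CCI+YZP and CCI+YH ranged from 50.1 to 82.1 CPM. CCI+BZ thus lay below every other library of the series.

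ENSRNOG00000050647 had the largest fold of the 4 identifiers. It measured 20.6, 6.54 and 10.0 CPM in CCI and 2.25, 1.49 and 2.12 CPM in CCI+BZ. The log2 fold change was -2.66, with an SE of 0.450 and an adjusted p of 0.206 in edgeR. Sham measured 8.67, 7.43 and 7.61 CPM. CCI+YZP ranged from 9.48 to 18.9 CPM and CCI+YH from 14.8 to 36.5 CPM. The CCI+BZ libraries were again below the other 12 libraries, and the CCI libraries differed among themselves by more than 3-fold.

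A locus with a running number in place of an Ensembl identifier was nearly unread in CCI, at 0.0875, 0 and 0.332 CPM, or 2, 0 and 6 counts. In CCI+BZ it measured 2.68, 2.82 and 2.38 CPM, or 50, 53 and 46 counts (edgeR adjusted p = 0.406). Sham ranged from 1.159 to 3.37 CPM and CCI+YH from 0.147 to 2.80 CPM, so low levels also occurred in 1 rat given YH. It was picked after its values were seen, as the locus of smallest p among those with a running number.

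**Figure D4:**
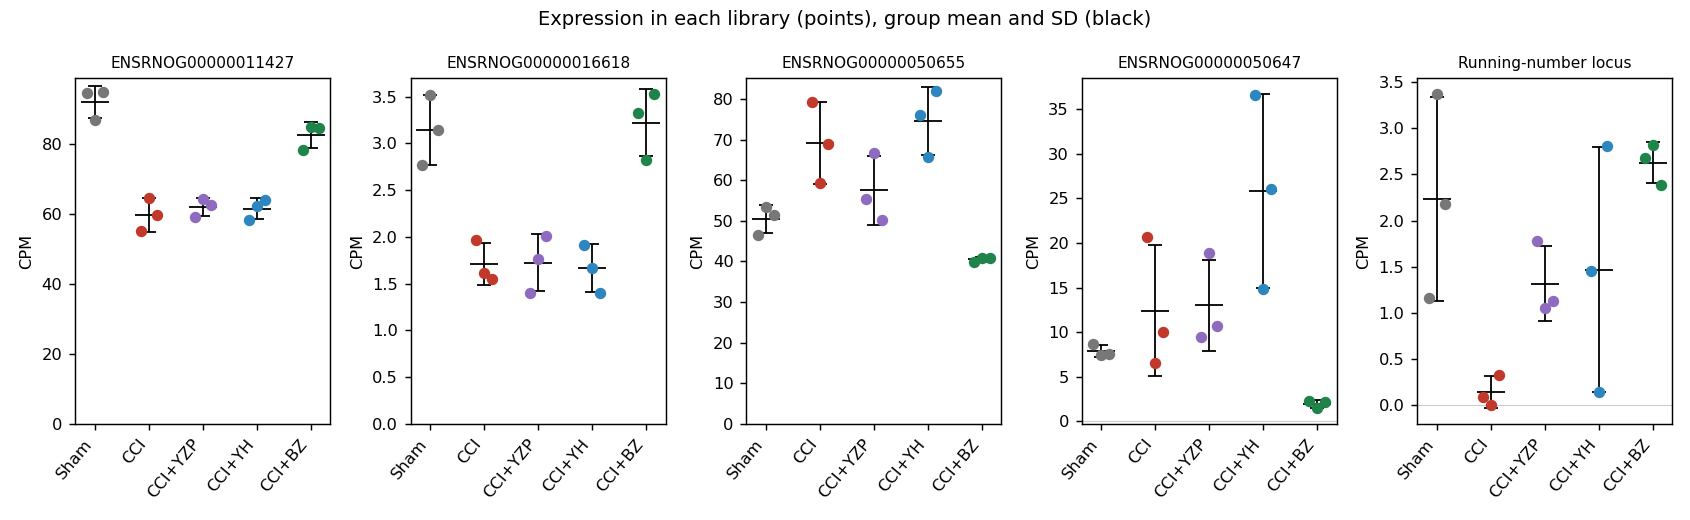
CPM of the 4 identifiers and the running-number locus in all 15 libraries, by group, with 1 point per library and the group mean and SD in black. In each panel the 3 CCI+BZ points lie on 1 side of the 3 CCI points, and for ENSRNOG00000050655 and ENSRNOG00000050647 they lie below all other libraries.

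Genes in which all 3 CCI+BZ libraries lay outside the other 12 numbered 67, 29 above and 38 below, or 0.447% of those tested. The same count was 64 for CCI+YH, 70 for CCI+YZP, 128 for CCI and 401 for Sham. As the filter used CCI and CCI+BZ libraries only, genes high only in the other groups are left out of these counts.

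The comparison was repeated without CCI+BZ replicate 1. That library lay closer to the CCI libraries than to its own group. Leaving it out therefore widens the group difference and narrows the spread in part by the choice itself. The libraries that remain are shared with the full comparison, so shared calls are not a separate result. The number of genes with an unadjusted edgeR p under 0.05 rose from 1008 to 2008 (13.4%), 990 higher and 1018 lower in CCI+BZ. It lay between 613 and 1047 when each of the other libraries was left out. The shared edgeR fit still called 0 genes, and called 3 only without CCI replicate 2. Without CCI+BZ replicate 1 it had a smallest adjusted p of 0.0642 and 3 genes under 0.1. DESeq2 without that library, the only one it was run without, called 144 genes (0.961%), 59 higher and 85 lower, among them 16 of the 18 called with it. EdgeR on the 5 remaining libraries of the 2 groups alone called 8. Genes with a log2 fold change of -1 or less went from 88 to 254, and those of 1 or more from 52 to 81. The 4 identifiers kept their directions, with log2 fold changes of 0.51 for ENSRNOG00000011427, 0.89 for ENSRNOG00000016618, -0.76 for ENSRNOG00000050655 and -2.78 for ENSRNOG00000050647.

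**Figure D5:**
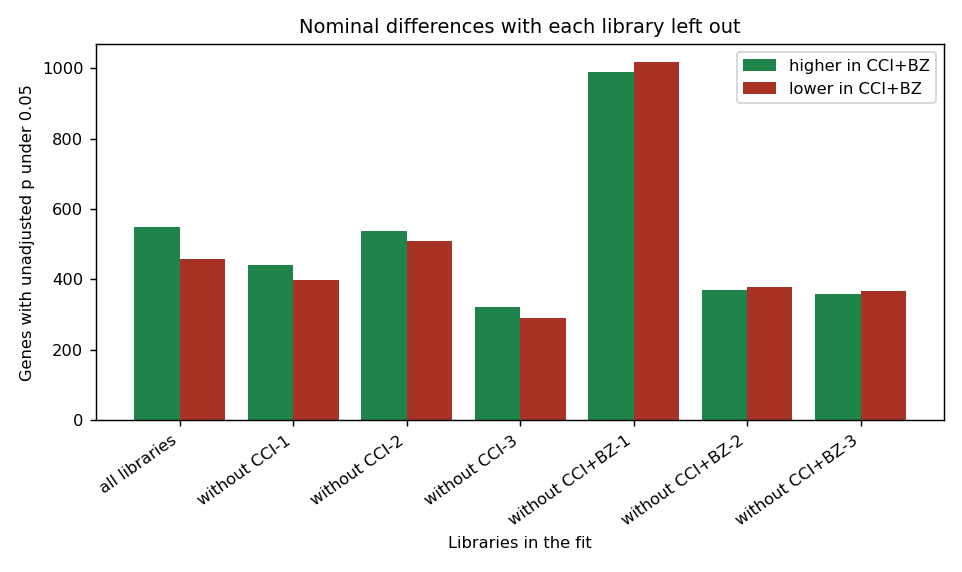
Number of genes with an unadjusted edgeR p under 0.05 in CCI+BZ against CCI, higher (green) and lower (red) in CCI+BZ, with all 15 libraries in the fit and with each of the 6 libraries left out. Without CCI+BZ-1 the counts are 990 and 1018, against 550 and 458 with all libraries.

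Against Sham, which asks how far treated cord stood from uninjured cord, edgeR called 0 of 14978 genes (0%), with 1197 at an unadjusted p under 0.05 (7.99%), 676 higher (4.51%) and 521 lower (3.48%) in CCI+BZ. Groups did not overlap in 1704 genes (11.4%), 871 higher (5.82%) and 833 lower (5.56%). DESeq2 called 25 of 14978 genes, 8 higher and 17 lower, and gave no adjusted p for 592 genes. The absolute log2 fold changes of the 25 ranged from 0.19 to 22.2 with a median of 0.45. These fitted values were not shrunken, and 22.2 is too large to be a measured fold at the depth of these libraries. Groups did not overlap in 24 of the 25, which were called on these same libraries, and in 11.4% of all genes tested. This comparison shares the CCI+BZ libraries with the one above. Without CCI+BZ replicate 1 the unadjusted count fell to 806 (5.38%), where 748.9 are expected with no effect, and DESeq2 called 23, of which 10 were among the 25. The unadjusted count fell about as far without Sham replicate 1, to 807, and rose to 1925 without CCI+BZ replicate 3. The log2 difference of ENSRNOG00000011427 from Sham had a 95% interval from -0.30 to -0.015 (edgeR adjusted p = 0.591), and that of ENSRNOG00000050647 one from -2.99 to -1.04 (adjusted p = 0.499).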

How the data were processed

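Per the file headers, the authors deposited 1 table of raw counts per library, as whole numbers per gene. The submitters' processing notes name the build rn4 and the tool DESeq2 1.16.1. Aligner, counting program, annotation and strand setting: not given in the sources used here. Reads of overlapping, antisense or near-identical genes may thus be shared. Of 34202 rows, 32883 carry an Ensembl identifier and 1319 a running number, and no row is a total. The reference table (GRCr8, 47357 genes) gives an Ensembl identifier for 0 genes, so no symbol was assigned, 33 gene lists drawn up by symbol were not tested, and no sequence is shown.

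Genes with at least 1 CPM in at least 3 of the 6 libraries were kept, 14245 with and 733 without an Ensembl identifier. With edgeR 4.0.16 in R 4.3.3, TMM scaling (trimmed mean of M-values) and a quasi-likelihood model with 1 coefficient per group were fitted to all 15 libraries, with 10 residual degrees of freedom. CPM values include that scaling, and log2 CPM used a prior count of 2. Benjamini-Hochberg adjustment ran over all genes tested, with a threshold of 0.05. Standard errors are the fold change over the root of F. Without symbols the naming rule allowed the 2 Ensembl identifiers of smallest p in each direction. Alternatives were DESeq2 1.42.0, limma 3.58.1 voom with sample quality weights, RLE scaling, other filters, fewer libraries and a replicate block. The scripts were tested on simulated data. Same-group libraries gave a chi-square per degree of freedom of 6.73 to 25.5, above sampling noise. Members, lists and tests were chosen with earlier results of these data known.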

Additional observations from a re-analysis of the deposited data

How the results depend on the processing

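EdgeR called 0 genes in CCI+BZ against CCI with RLE scaling, with filterByExpr and with only the 6 libraries, and limma voom with quality weights also called 0. DESeq2 called 18, and edgeR called 2 with no filter on low counts. Over fits with 1 library left out, 2 added after seeing the data among them, the count went from 0 to 144. In the shared edgeR fit it was above 0 only without CCI replicate 2, with 3 genes, all named identifiers, and the highest value came from DESeq2 without CCI+BZ replicate 1. The fit of the 6 libraries without CCI+BZ replicate 1 called 8. Against Sham DESeq2 called 25 and the fit of the 6 libraries 1. With 1 library left out the count went from 0 to 23, with 2 without CCI+BZ replicate 3, 3 in the fit of the 6 libraries without CCI+BZ replicate 1, and the highest from DESeq2 without that library. The causes were not tested.

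The adjusted p of ENSRNOG00000011427 ranged from 1.26e-06 to 0.731 over 15 alternatives, with log2 fold changes of 0.41 to 0.53. For ENSRNOG00000016618, to which DESeq2 with all libraries gave no adjusted p, they were 0.118 to 0.999 over the other 14 and 0.84 to 1.02, for ENSRNOG00000050655 3.85e-06 to 0.731 and -0.87 to -0.66, and for ENSRNOG00000050647 3.29e-07 to 0.901 and -2.97 to -2.07, so no direction changed. ENSRNOG00000011427 and ENSRNOG00000050655 passed the threshold in 4 of these alternatives each and ENSRNOG00000050647 in 3, among them DESeq2 in each case. No pairing of the libraries by the replicate numbers in the titles was seen. Deviations from the group means of same-numbered CCI and CCI+BZ libraries correlated at -0.092, 0.010 and -0.13. None of the CCI+BZ libraries correlated best with its own number. With 3 libraries per group this cannot exclude that same-numbered libraries were handled together. With the replicate block edgeR called 0 genes in both comparisons, with 883 and 1043 at an unadjusted p under 0.05.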

Other observations

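Nominal differences between CCI+BZ and CCI were spread over all levels of abundance. Among genes under 3 CPM over the 6 libraries, 6.92% had an unadjusted edgeR p under 0.05, and among those of 100 CPM or more 5.47%. Without CCI+BZ replicate 1 the split by direction was as follows, and its dependence on abundance was not tested. Of 352 such genes at 100 CPM or more, 243 were higher and 109 lower in CCI+BZ, while of 382 genes between 3 and 10 CPM, 139 were higher and 243 lower. With all libraries the splits were 57 against 52 and 117 against 84. The share of counts taken by the most abundant genes, given above for each library, moved with this pattern, and its part in it was not tested.

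Loci known only by a running number, 733 of the genes tested, had 56 with an unadjusted edgeR p under 0.05 (7.64%), 41 higher and 15 lower in CCI+BZ. The share was 6.73% over all genes tested. Genes with an Ensembl identifier had 952 (6.68%), 509 higher and 443 lower. Without CCI+BZ replicate 1 the loci split into 48 higher and 29 lower (10.5%), against 13.6% of genes with an Ensembl identifier. Some genes reached 5 CPM in 1 library of a group and stayed under 0.5 CPM in another. Their number was lowest for CCI, at 11, against 20 for CCI+BZ, 20 for Sham, 22 for CCI+YH and 19 for CCI+YZP. These are small counts, and neither their spread by chance nor the cause of the low count in CCI was tested.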
